A study of Homo sapiens with 6 samples.

Results

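The genes described here copy chromosomal DNA or prepare the cell to do so. There are 46 of them, all found among the 12396 named genes of a deposited RNA-seq count table by a fixed list of symbols. The list takes genes by symbol and not by value, but it was chosen with earlier results of these data known. They comprise 10 origin licensing genes, 6 genes that switch the replicative helicase on, 14 genes of the replication fork, 4 genes of deoxynucleotide supply, 5 genes of chromatin assembly and uracil removal, and 7 genes of cyclin E and E2F control. The cells were JHH-4, an epithelial-like line from a human hepatocellular carcinoma. In the miR372_3p group a plasmid with the primary microRNA transcript drove overexpression of hsa-miR-372-3p, and the Control group was labelled control and wild type. The sources used here do not give what the Control cells carried, nor a clone, dose or time for either group. Each group held 3 libraries, called technical replicates by the series, and p-values therefore reflect the spread among these 6 libraries alone. The overexpression could not be checked, since transcripts of the miR-372 locus were not analysed here.

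A cell licenses its origins in G1, when the origin recognition complex, CDC6 and CDT1 load the MCM2-7 helicase onto DNA in an inactive form. On entry into S phase, CDC45 and the GINS complex join MCM2-7 to make the active helicase, and polymerases alpha, epsilon and delta copy the strands with the help of the clamp PCNA, its loader RFC and the enzymes that finish Okazaki fragments. Ribonucleotide reductase and thymidylate synthase supply deoxynucleotides, and E2F transcription factors, released when cyclin E and its kinase phosphorylate the pocket proteins, drive transcription of most of these genes.

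Among the 46 genes, 20 fell, 7 rose and 19 were not called in miR372_3p cells relative to Control cells (edgeR quasi-likelihood F-test, Benjamini-Hochberg adjusted p under 0.05 over all 12396 genes). The shares to set beside these counts are those over all genes tested, of which 27.7% fell and 26.8% rose. The 46 genes thus held 43.5% that fell and 15.2% that rose. Their median log2 fold change was −0.10, against 0.0013 over all genes. In 20 genes every miR372_3p library lay below every Control library, and in 10 every one lay above, against 31.4% and 30.7% of all genes. Most changes were small, with a median absolute log2 fold change of 0.17, against 0.22 over all genes. By at least 1.5-fold, 4 of the 46 fell (RRM2, E2F2, GINS3 and POLA2) and 1 rose (E2F7). Over all genes 8.46% fell and 7.11% rose that far, so the share of members that fell by 1.5-fold was near that of all genes. In bulk RNA, fewer cells in S phase and less of these transcripts per cell cannot be told apart.

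Total counts ran from 52511378 to 61699567 in the miR372_3p libraries and from 48325676 to 49693205 in the Control libraries, and the 46 genes summed to between 2390 and 149377 counts each over the 6 libraries. They took 0.568, 0.559 and 0.564% of the counts of named genes in miR372_3p libraries 1 to 3, against 0.604, 0.585 and 0.628% in Control libraries 1 to 3. The groups separated on the first principal component (72.5% of the variance), and Control replicate 3 stood apart from the other Control libraries on the second (10.2%). Of 11 liver and epithelial markers, 5 had a row. Their summed level was 4716 to 4867 CPM (counts scaled to a common library size) in miR372_3p libraries and 2339 to 2431 CPM in Control libraries, nearly all of it from the keratins KRT8 and KRT18, while ALB, AFP, APOA1, APOB, TTR and HNF4A were not analysed here. Of 12 blood, endothelial and fibroblast markers, 4 had a row (COL1A1, COL1A2, PDGFRB and CD14). Their summed level was 83.1 to 91.0 CPM in miR372_3p libraries and 14.8 to 18.8 CPM in Control libraries. Most of this difference came from COL1A1, with a mean of 64.0 CPM in miR372_3p and 4.84 CPM in Control libraries. PDGFRB also rose (mean 20.2 against 9.08 CPM), while COL1A2 and CD14 overlapped between groups and did not pass. The part of these marker differences in the results below was not tested.

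**Figure D1:**
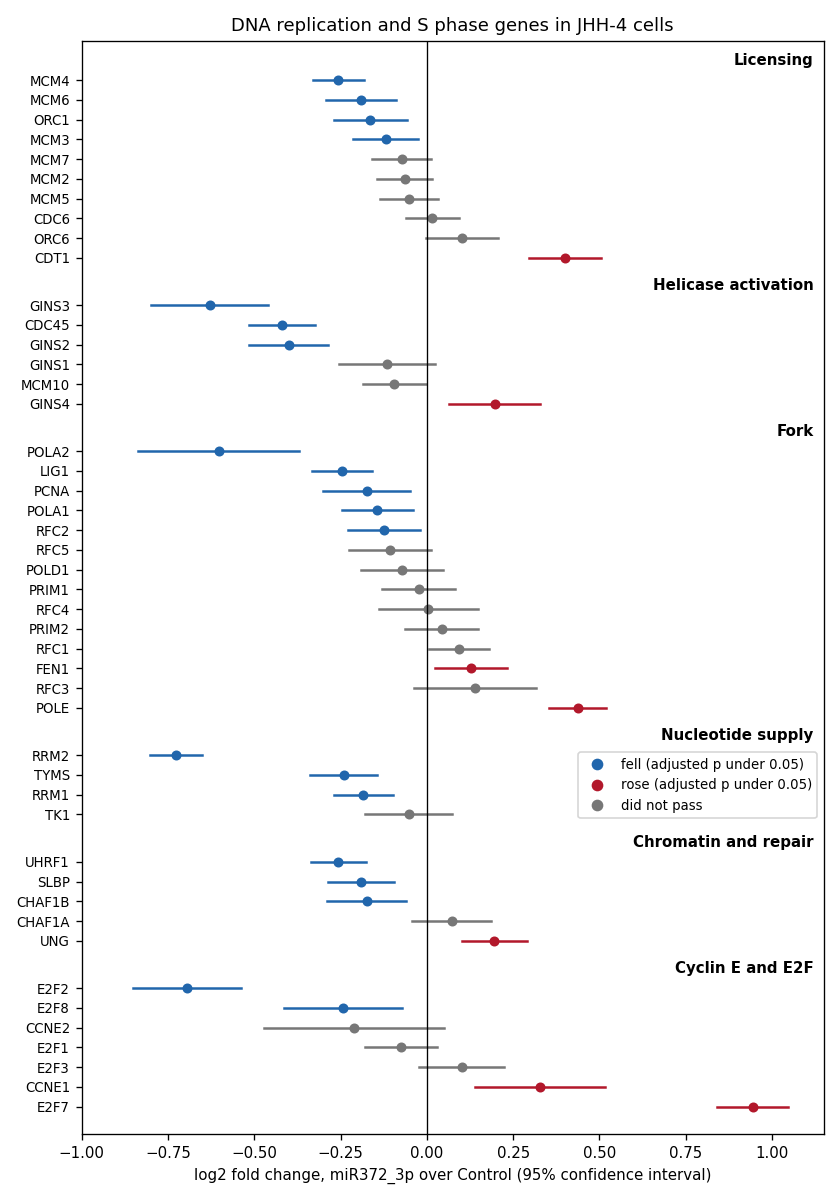
Log2 fold change of the 46 genes, miR372_3p over Control, by role (points: edgeR estimate; lines: 95% confidence interval; n = 3 libraries a group). RRM2 and E2F2 lie farthest to the left, E2F7 farthest to the right, and CDT1, POLE and GINS4 lie to the right of the other members of their roles that changed.

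The microRNA pairs with messenger RNAs through its seed, bases 2 to 8, shown here in capitals because the matches described next are read from it. The mature sequence is that of RefSeq (chr19:53787931-53787953, plus strand, GRCh38.p14).
hsa-miR-372-3p: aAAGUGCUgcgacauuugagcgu
In the longest annotated 3′ UTR of each gene (GENCODE 29, GRCh38), the 8-base match AGCACTTA was the best match in 1 of the 46 genes and the 7-base match AGCACTT in 14. These were 2.17% and 30.4% of the members, against 4.05% and 21.5% of 12194 tested genes. The gene with the 8-base match was E2F7, the gene that rose most. In 4 genes with the 7-base match (GINS2, CHAF1B, ORC6 and CDT1) the site lay in nearly the same sequence, the form of an Alu repeat. These 4 matches are therefore copies of a repeat and not separate sites particular to each gene. GINS4 held AGCACTT more than once, starting at bases 120, 231 and 3014 of its 3′ UTR. For MCM4 and GINS4 the sequence around the matches was not read. Whether repeat sites act as the others do was not tested. Of the 14 with AGCACTT, 7 fell (E2F2, GINS2, MCM4, UHRF1, MCM6, CHAF1B and MCM3), 2 rose (CDT1 and GINS4) and 5 did not pass. Over all tested genes, 778 of the 2619 with AGCACTT fell and 711 rose, 221 of the 494 with AGCACTTA fell and 104 rose, and 1899 of the 7245 without a match fell and 1936 rose. Of the 25 members without even the 6-base match GCACTT, 11 fell and 4 rose, so the genes that fell included both kinds. RRM2, the gene that fell most, held only GCACTT. The best site of each of the genes with the largest changes, and of MCM6, is shown with the match in capitals. E2F7 also held GCACTTA, and E2F2 also held GCACTTA and further GCACTT sites, which are not shown.
E2F7, chr12:77023673-77023702, minus strand: gggcgctgtctAGCACTTAactagggtaag
E2F2, chr1:23508345-23508373, minus strand: ctcagctggacAGCACTTtttagaaaagt
RRM2, chr2:10129752-10129779, plus strand: atataaacctgGCACTTtacaaacaaat
MCM6, chr2:135840624-135840652, minus strand: acacaggcttcAGCACTTcctttggtgtg

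Promoters were read from RefSeq (GRCh38.p14, 250 bases before to 50 bases after each start), where 41 of the 46 genes matched; MCM4, MCM5, GINS4, CCNE2 and E2F8 did not. The E2F words searched on both strands were TTTCCCGC, TTTCGCGC, TTTGCCGC and TTTGGCGC. They occurred in 20 of the 41 promoters (48.8%), against 5.29% of 10067 tested genes with a promoter, 19.3% of 57 other replication genes and 10.5% of 19 genes of G2 and mitosis. Words on opposite strands overlapped in MCM6 and MCM2. The words were most frequent among licensing genes (6 of 8 promoters) and present in 3 of 5 genes of helicase activation, 6 of 14 fork genes, 1 of 4 nucleotide supply genes, 1 of 5 chromatin genes and 3 of 5 cyclin E and E2F genes. CCAAT, the core of the NF-Y motif, occurred in 58.5% of the members' promoters, against 37.2% of those of the tested genes and 89.5% of the mitotic ones. TTTGAA, the core of the CHR element of mitotic promoters, occurred in 4.88% of the members' promoters, against 9.73% of those of the tested genes and 68.4% of the mitotic ones.

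Members with an E2F word changed in both directions: 11 fell, 2 rose and 7 did not pass, while of the 21 without one 7 fell, 4 rose and 10 did not pass. Over all tested genes, 27.2% of the 533 with a word fell and 23.3% rose, against 28.2% and 26.6% of the 9534 without one. The windows below run from 80 bases before to 19 after the start and belong to genes with the largest changes in 5 of the 6 roles, the chromatin genes being left out. E2F words are in capitals, and the windows of RRM2 and E2F7 hold none of these words.
E2F2, chr1:23531214-23531313, minus strand: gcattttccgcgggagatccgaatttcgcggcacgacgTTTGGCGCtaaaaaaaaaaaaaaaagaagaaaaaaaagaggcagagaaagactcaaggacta
POLA2, chr11:65261882-65261981, plus strand: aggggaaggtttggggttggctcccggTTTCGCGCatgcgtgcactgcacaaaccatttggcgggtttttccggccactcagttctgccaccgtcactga
GINS3, chr16:58392391-58392490, plus strand: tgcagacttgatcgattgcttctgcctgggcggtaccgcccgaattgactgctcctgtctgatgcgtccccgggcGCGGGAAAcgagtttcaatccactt
CDT1, chr16:88803709-88803808, plus strand: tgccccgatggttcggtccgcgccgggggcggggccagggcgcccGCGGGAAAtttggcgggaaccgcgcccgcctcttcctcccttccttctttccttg
POLE, chr12:132687323-132687422, minus strand: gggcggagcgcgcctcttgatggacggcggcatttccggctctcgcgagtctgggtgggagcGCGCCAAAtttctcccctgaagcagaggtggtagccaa
RRM2, chr2:10122659-10122758, plus strand: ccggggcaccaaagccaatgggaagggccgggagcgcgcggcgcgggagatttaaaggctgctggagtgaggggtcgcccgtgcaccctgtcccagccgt
E2F7, chr12:77065550-77065649, minus strand: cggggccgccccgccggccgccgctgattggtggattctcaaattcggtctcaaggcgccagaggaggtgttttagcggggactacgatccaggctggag

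**Figure D2:**
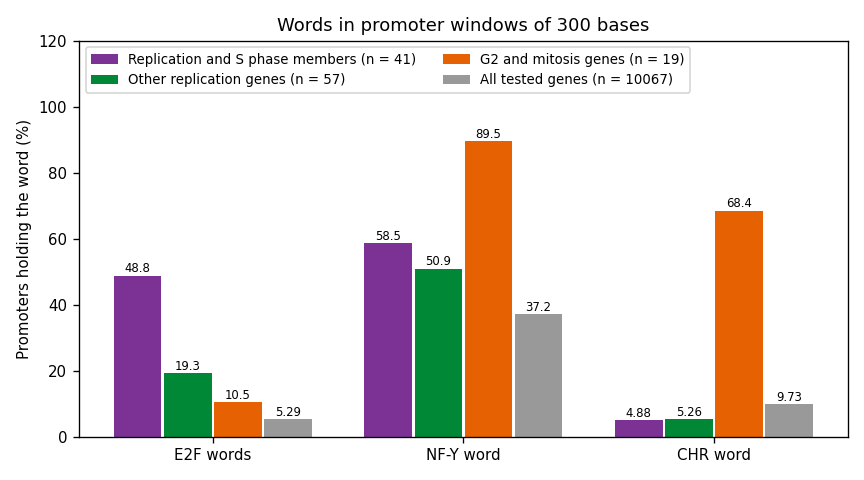
Share of promoter windows of 300 bases that hold an E2F, NF-Y or CHR word, in percent, for the 46 replication and S phase genes (41 with a promoter), other replication genes, genes of G2 and mitosis and all tested genes. The E2F words are most frequent in the replication and S phase genes (48.8%), and the NF-Y and CHR words in the mitotic genes.

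Licensing genes changed little apart from CDT1. Of 10, 4 fell, 1 rose and 5 did not pass, with a median log2 fold change of −0.069. MCM4, a subunit of the helicase, had 247, 246 and 248 CPM in miR372_3p libraries 1 to 3, against 294, 301 and 290.1 CPM in Control libraries 1 to 3. The groups did not overlap, and the log2 fold change was −0.26 ± 0.033 (standard error; edgeR adjusted p = 0.000129), or 1.19-fold lower. MCM6, its neighbour in the ring, had 151, 154 and 154 CPM in miR372_3p libraries, against 174, 165 and 185 CPM in Control libraries. Again the groups did not overlap, with the Control libraries more spread than the miR372_3p ones (log2 fold change −0.19 ± 0.045, edgeR adjusted p = 0.00508). MCM3 also fell (−0.12 ± 0.042, edgeR adjusted p = 0.0367). The other subunits MCM7, MCM2 and MCM5 had log2 fold changes of −0.073, −0.065 and −0.051 and did not pass. All 6 subunits of MCM2-7 therefore had negative estimates, 3 of them past the threshold, with a median of −0.096.

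ORC1, the largest subunit of the origin recognition complex, had 36.1, 39.5 and 38.0 CPM in miR372_3p cells, against 42.6, 42.4 and 42.2 CPM in Control cells. It fell by a small amount (−0.16 ± 0.047, edgeR adjusted p = 0.0147), without overlap. ORC6, its smallest subunit, had a log2 fold change of 0.10 ± 0.047 that missed the threshold (edgeR adjusted p = 0.0927). CDC6, the ATPase that recruits MCM2-7 with CDT1, showed 174, 175 and 169.9 CPM in miR372_3p libraries and 168, 172 and 173 CPM in Control libraries. These values interleave, and the interval of its log2 fold change ran from −0.062 to 0.093.

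CDT1 (ENSG00000167513; chr16:88803213-88809258, plus strand, GRCh38), the loading factor that is destroyed once S phase begins, was the only licensing gene that rose. It had 151, 146 and 136 CPM in miR372_3p libraries, against 110.2, 111 and 106 CPM in Control libraries. The lowest miR372_3p library lay well above the highest Control library, and the log2 fold change was 0.40 ± 0.047 (1.32-fold higher, edgeR adjusted p = 7.01e-05). Geminin (GMNN), the protein that binds and inhibits CDT1, had 41.7, 41.9 and 43.3 CPM in miR372_3p cells and 41.7, 40.5 and 41.8 CPM in Control cells, and did not pass (0.034 ± 0.043). The ratio of CDT1 to GMNN counts within a library averaged 3.41 ± 0.246 in miR372_3p libraries and 2.64 ± 0.111 in Control libraries (SD, n = 3 each), without overlap. Without miR372_3p replicate 1, ORC1 no longer passed (edgeR adjusted p = 0.0754), and MCM3 missed the threshold without any one library other than Control replicate 2 (edgeR adjusted p of 0.0622 to 0.107). Its log2 fold change was −0.079 without Control replicate 3.

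Among the 6 genes that switch the helicase on, CDC45 and a pair of GINS subunits fell, 1 gene rose and 2 did not pass, with a median log2 fold change of −0.26. CDC45, which joins MCM2-7 to form the active helicase, had 51.1, 52.1 and 50 CPM in miR372_3p libraries, against 68.9, 68.9 and 67.1 CPM in Control libraries. Replicates lay close together and the groups far apart, with a log2 fold change of −0.42 ± 0.043 (1.34-fold lower, edgeR adjusted p = 2.99e-05). Of the 4 subunits of GINS, the other partner of the helicase, 2 fell, 1 rose and 1 did not pass. GINS3 (ENSG00000181938; chr16:58295080-58406144, plus strand, GRCh38) had 15.4, 16.1 and 18.0 CPM in miR372_3p cells, against 24.7, 24.9 and 26.8 CPM in Control cells. Every miR372_3p value was below every Control value, and the log2 fold change was −0.63 ± 0.076 (1.55-fold lower, edgeR adjusted p = 8.5e-05). GINS2 had 42.6, 42.6 and 42.9 CPM in miR372_3p cells, against 55.7, 59.8 and 53.6 CPM in Control cells. It fell 1.32-fold (−0.40 ± 0.051, edgeR adjusted p = 0.000115), again with no overlap.

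GINS4 went the other way. It had 35.7, 37.7 and 40.6 CPM in miR372_3p libraries, against 34.2, 32.2 and 33.1 CPM in Control libraries. The groups did not overlap, but the gap was narrow, at a log2 fold change of 0.20 ± 0.059 (edgeR adjusted p = 0.0171), and without miR372_3p replicate 3 it did not pass (edgeR adjusted p = 0.0731). GINS1 did not pass (−0.12 ± 0.062, edgeR adjusted p = 0.141). The ratio of GINS4 to GINS3 counts was 2.31 ± 0.041 in miR372_3p libraries and 1.30 ± 0.074 in Control libraries (SD, n = 3 each). MCM10, which stabilises the helicase as it starts, had 60.6, 60.9 and 61.8 CPM in miR372_3p libraries and 65.2, 65.4 and 65.2 CPM in Control libraries. Its groups did not overlap although the difference was small, and the test was not passed (−0.095 ± 0.041, edgeR adjusted p = 0.0749).

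**Figure D3:**
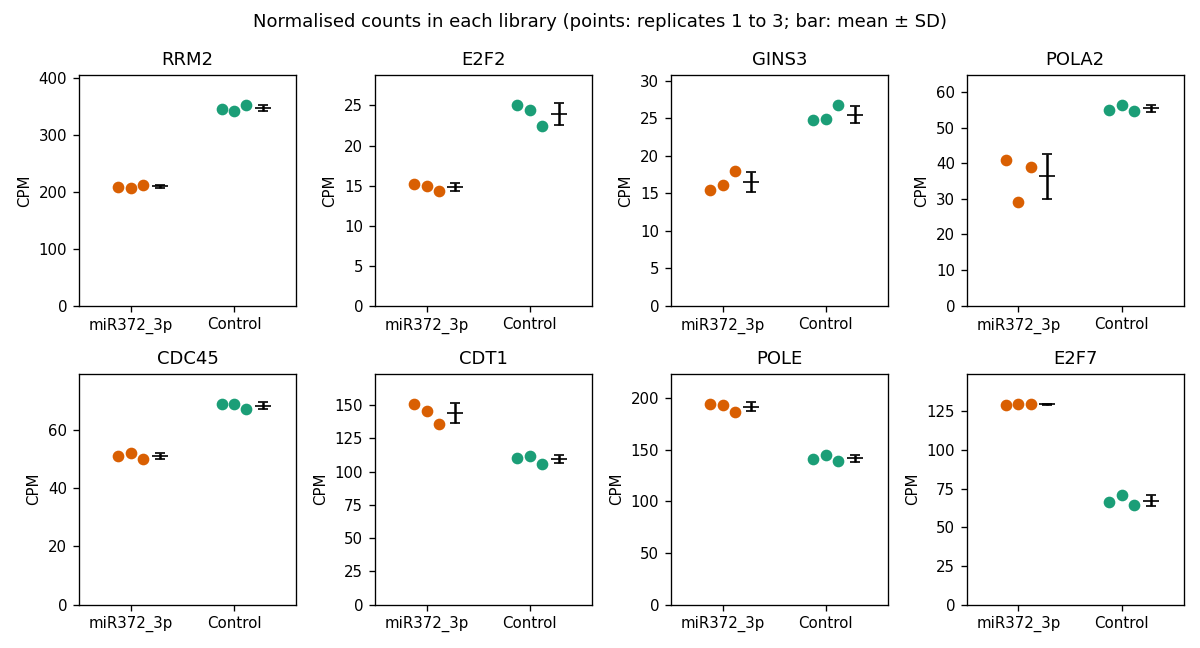
Normalised counts (CPM, axis from 0) of 8 genes in each library, miR372_3p left of Control (points: replicates 1 to 3; bars: mean ± SD). RRM2, E2F2, GINS3, POLA2 and CDC45 lie lower and CDT1, POLE and E2F7 higher in the miR372_3p libraries, with no overlap, and miR372_3p replicate 2 is low for POLA2.

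Fork genes went both ways around a median near that of all genes. Of 14, 5 fell, 2 rose and 7 did not pass, with a median log2 fold change of −0.048; without Control replicate 2 the median was −0.086. POLA2 (ENSG00000014138; chr11:65261762-65305589, plus strand, GRCh38), the regulatory subunit of polymerase alpha, which starts each new strand together with primase, had 41.0, 29.2 and 39.0 CPM in miR372_3p libraries, against 55.0, 56.4 and 54.8 CPM in Control libraries. Replicate 2 was the lowest of the miR372_3p libraries, yet all 3 were below the Control libraries (log2 fold change −0.60 ± 0.1, 1.52-fold lower, edgeR adjusted p = 0.000851). Without that replicate its log2 fold change was −0.47. The catalytic subunit POLA1 also fell (−0.14 ± 0.046, edgeR adjusted p = 0.0239). The primase genes PRIM1 and PRIM2 had estimates of −0.024 and 0.044 and did not pass.

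POLE (ENSG00000177084; chr12:132623753-132687365, minus strand, GRCh38), the catalytic subunit of polymerase epsilon, which copies the leading strand, rose while most fork genes did not. It had 195, 194 and 187 CPM in miR372_3p libraries, against 141, 145 and 139 CPM in Control libraries. The groups were well separated, at a log2 fold change of 0.44 ± 0.037 (1.35-fold higher, edgeR adjusted p = 8.08e-06). Its partner subunits POLE3 and POLE4 fell (−0.22 ± 0.041 and −0.39 ± 0.078), and POLE2 had −0.23 ± 0.12 and did not pass (edgeR adjusted p = 0.125). POLD1, the catalytic subunit of polymerase delta, which copies the lagging strand, had 212, 215 and 203 CPM in miR372_3p libraries and 222, 204 and 236 CPM in Control libraries. These overlap, and the log2 fold change was −0.072 ± 0.053, although it passed without Control replicate 2 (−0.12, edgeR adjusted p = 0.0416). The ratio of POLE to POLD1 counts was 0.913 ± 0.012 in miR372_3p libraries and 0.645 ± 0.062 in Control libraries (SD, n = 3 each).

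PCNA, the sliding clamp of the polymerases, had 320.0, 309.7 and 311 CPM in miR372_3p libraries, against 356, 323 and 384 CPM in Control libraries. The Control values were widely spread, and the lowest of them, replicate 2, lay just above the highest miR372_3p value (log2 fold change −0.17 ± 0.056, edgeR adjusted p = 0.0245). Of the 5 subunits of the clamp loader, RFC2 fell (−0.12 ± 0.047, edgeR adjusted p = 0.0466) and 4 did not pass, from −0.11 for RFC5 to 0.14 for RFC3. RFC4 had 52.7, 50.2 and 54.5 CPM in miR372_3p libraries and 52.8, 47.8 and 56.4 CPM in Control libraries, with the values interleaved. LIG1, the ligase that seals Okazaki fragments, had 115, 113 and 113 CPM in miR372_3p cells, against 139.5, 131 and 134 CPM in Control cells. It fell 1.19-fold without overlap (−0.25 ± 0.039, edgeR adjusted p = 0.000506). FEN1, the flap nuclease that trims the fragments before they are sealed, showed 98.8, 98.9 and 98.1 CPM in miR372_3p cells, against 88.8, 86.4 and 95.6 CPM in Control cells. It rose by a small amount (0.13 ± 0.046, edgeR adjusted p = 0.0409), and its exons overlap those of FADS2 and TMEM258.

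The smaller calls at the fork depended on the libraries used. FEN1 missed the threshold without any one library other than Control replicate 3 (edgeR adjusted p of 0.0860 to 0.124), and PCNA without any one other than Control replicates 2 and 3 (0.0506 to 0.0727). POLA1 missed it without Control replicate 1 and without miR372_3p replicates 1 and 2 (0.0592 to 0.0990), and RFC2 without Control replicate 1 and without miR372_3p replicates 2 and 3 (0.125 to 0.162).

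Nucleotide supply genes held the largest fall of any member. Of 4, 3 fell, none rose and 1 did not pass, with a median log2 fold change of −0.21. RRM2 (ENSG00000171848; chr2:10120698-10131419, plus strand, GRCh38), the subunit of ribonucleotide reductase that carries the tyrosyl radical and is made in S phase, had 209, 207 and 212 CPM in miR372_3p libraries, against 345, 343 and 353 CPM in Control libraries. The spread within each group was small beside the gap between them, which gave a log2 fold change of −0.73 ± 0.033 (1.66-fold lower, edgeR adjusted p = 1.49e-07). RRM1, the large subunit that holds the catalytic site, had 139, 137 and 142 CPM in miR372_3p libraries, against 153, 159 and 162 CPM in Control libraries. It also fell, without overlap (−0.18 ± 0.038, edgeR adjusted p = 0.00239). The ratio of RRM2 to RRM1 counts was 1.51 ± 0.010 in miR372_3p libraries and 2.20 ± 0.052 in Control libraries (SD, n = 3 each). RRM2B, the alternative small subunit induced by p53, had 16.8, 14.2 and 18.1 CPM in miR372_3p libraries and 14.9, 12.9 and 15.2 CPM in Control libraries, which overlap (0.19 ± 0.1, edgeR adjusted p = 0.143).

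TYMS, thymidylate synthase, which makes dTMP from dUMP, had 314, 309 and 315 CPM in miR372_3p cells, against 374, 348 and 387 CPM in Control cells. The groups did not overlap (log2 fold change −0.24 ± 0.043, edgeR adjusted p = 0.00104). Its exons overlap those of ENOSF1 on the other strand, and the library kit does not mark strand, so its counts may include reads of that gene. TK1, thymidine kinase of the salvage route, had 294, 301 and 295 CPM in miR372_3p cells and 296, 289 and 338 CPM in Control cells. The only Control library above the miR372_3p range was replicate 3, and the test was not passed (−0.053 ± 0.056, edgeR adjusted p = 0.45).

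The 3 main steps of the pathway can be set side by side by library, as the median log2 ratio of a role's genes to their Control mean. For nucleotide supply it was −0.21, −0.23 and −0.19 in miR372_3p libraries 1 to 3, against −0.027, −0.053 and 0.052 in Control libraries 1 to 3. For licensing it was −0.041, −0.075 and −0.10 in miR372_3p libraries, against −0.0044, 0.0056 and 0.0050 in Control libraries. For the fork it was −0.023, −0.048 and −0.056 in miR372_3p libraries, against 0.0029, −0.056 and 0.031 in Control libraries. The groups were apart for nucleotide supply and licensing and overlapped for the fork, through Control replicate 2. Whether the roles differ from each other was not tested.

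Among genes of chromatin assembly and repair, 3 of 5 fell, 1 rose and 1 did not pass, with a median log2 fold change of −0.17. UHRF1, which brings the maintenance methyltransferase to newly copied DNA, had 119, 121 and 118 CPM in miR372_3p libraries, against 142, 141 and 144 CPM in Control libraries. It fell 1.19-fold with tight replicates and no overlap (−0.26 ± 0.035, edgeR adjusted p = 0.000193). SLBP, the protein that binds the stem-loop of replication-dependent histone mRNAs, had 102, 94.8 and 99.1 CPM in miR372_3p libraries, against 115, 113 and 109.9 CPM in Control libraries. No miR372_3p library reached the Control range (−0.19 ± 0.042, edgeR adjusted p = 0.00375). CHAF1B, a subunit of the histone chaperone CAF-1, had 30.9, 30.4 and 28.5 CPM in miR372_3p cells, against 33.8, 33.7 and 33.9 CPM in Control cells. It fell by a small amount (−0.17 ± 0.051, edgeR adjusted p = 0.0158), a call lost without miR372_3p replicate 3 (edgeR adjusted p = 0.0641). CHAF1A, the large subunit of CAF-1, had 89.0, 95.2 and 83.9 CPM in miR372_3p cells and 85.5, 84.8 and 84.8 CPM in Control cells, which overlap (0.071 ± 0.051). UNG, the glycosylase that removes uracil from DNA, rose, with 155, 159 and 157 CPM in miR372_3p cells, against 140.2, 130.0 and 141 CPM in Control cells. Its groups did not overlap (0.20 ± 0.042, edgeR adjusted p = 0.00303).

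Cyclin E and E2F genes held the widest spread of any role. Of 7, 2 fell, 2 rose and 3 did not pass, with a median log2 fold change of −0.075. E2F7 (ENSG00000165891; chr12:77021247-77065580, minus strand, GRCh38), an atypical E2F that represses E2F target genes during S phase, had 129, 129.8 and 130.0 CPM in miR372_3p libraries, against 66.5, 71.1 and 64.4 CPM in Control libraries. The miR372_3p values were nearly equal to one another and far above the Control values, at a log2 fold change of 0.94 ± 0.046 (1.92-fold higher, edgeR adjusted p = 2.19e-07). E2F8, the other atypical E2F, had 18.3, 18.5 and 19.3 CPM in miR372_3p libraries, against 23.1, 23.3 and 19.9 CPM in Control libraries. It fell (−0.24 ± 0.076, edgeR adjusted p = 0.022), with Control replicate 3 close to the miR372_3p libraries. The call was lost without any one of Control replicates 1 and 2 and miR372_3p replicates 1 and 2 (edgeR adjusted p of 0.0619 to 0.0804). The ratio of E2F7 to E2F8 counts was 6.94 ± 0.172 in miR372_3p libraries and 3.06 ± 0.175 in Control libraries (SD, n = 3 each).

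E2F2 (ENSG00000007968; chr1:23506430-23531220, minus strand, GRCh38), one of the activating E2Fs, had 15.2, 14.9 and 14.3 CPM in miR372_3p libraries, against 25.1, 24.4 and 22.4 CPM in Control libraries. The groups were well apart (−0.69 ± 0.070, 1.62-fold lower, edgeR adjusted p = 2.52e-05). The activators E2F1 and E2F3 did not pass: E2F1 had 172, 172 and 176 CPM in miR372_3p cells and 173, 180.0 and 195 CPM in Control cells (−0.075 ± 0.046), and the estimate for E2F3 was 0.10 ± 0.054. CCNE1, one of the paired E-type cyclins that activate CDK2 at the G1 to S transition, had 16.6, 15.0 and 15.8 CPM in miR372_3p cells, against 13.3, 13.1 and 11.5 CPM in Control cells. It rose without overlap (0.33 ± 0.084, edgeR adjusted p = 0.00813). CCNE2, its paralog, had 8.07, 6.51 and 7.0 CPM in miR372_3p cells and 8.29, 7.70 and 9.0 CPM in Control cells, which overlap (−0.21 ± 0.12, edgeR adjusted p = 0.152). Within a library the ratio of CCNE1 to CCNE2 counts was 2.21 ± 0.132 in miR372_3p cells and 1.53 ± 0.221 in Control cells (SD, n = 3 each).

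**Figure D4:**
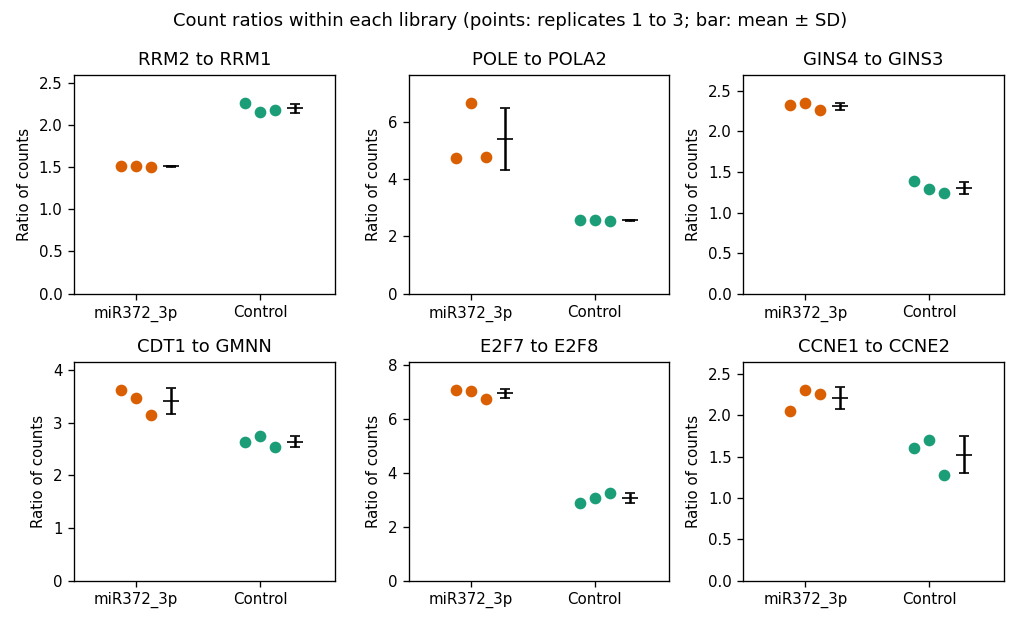
Ratios of the counts of paired genes within each library (axis from 0), miR372_3p left of Control (points: replicates 1 to 3; bars: mean ± SD). The miR372_3p libraries lie below Control for RRM2 to RRM1 (1.51 against 2.20) and above it for the other 5 pairs; the pairs were chosen after their values were seen.

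Levels can be compared between genes only per length, for which the deposited FPKM values were used. PCNA was the most abundant of the 46, at 208 ± 6.14 FPKM in miR372_3p libraries and 234 ± 22.8 FPKM in Control libraries (SD, n = 3 each), followed by TYMS, TK1 and MCM7. RRM2 had 55.9 ± 1.24 FPKM in miR372_3p cells, where it lay below MCM2, MCM3, UNG, MCM5, E2F1 and RFC2, and 92.5 ± 3.89 FPKM in Control cells, where it followed MCM7 in the order. CCNE2 was the least abundant, at 2.23 ± 0.256 FPKM in miR372_3p libraries and 2.38 ± 0.119 FPKM in Control libraries, with E2F2 the next in miR372_3p libraries at 2.54 ± 0.0979 FPKM and in Control libraries at 4.10 ± 0.203 FPKM. E2F7 had 20.4 ± 0.181 FPKM in miR372_3p libraries and 10.5 ± 0.429 FPKM in Control libraries, above E2F2, E2F3 and E2F8 and below E2F1 in both. The MCM2-7 subunits lay between 36.5 ± 0.2 (MCM6) and 142 ± 3.93 FPKM (MCM7) in miR372_3p libraries, and between 41.5 ± 2.81 and 149 ± 5.78 FPKM in Control libraries, although they act as a ring with 1 copy of each.

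Of another 72 genes of replication and its control, 31 fell (43.1%), 14 rose (19.4%) and 27 did not pass, with a median log2 fold change of −0.12. Of 10 further enzymes of nucleotide supply or breakdown, 7 fell and none rose. The largest falls were those of CMPK1 (−0.70 ± 0.043), a pyrimidine nucleoside monophosphate kinase, and SAMHD1 (−0.60 ± 0.052), which breaks down deoxynucleotides. Among 6 further chromatin genes, 4 fell and none rose. The histone chaperone gene ASF1B had 39.0, 38.2 and 38.6 CPM in miR372_3p libraries, against 69.4, 70.2 and 76.6 CPM in Control libraries, with no overlap. It fell 1.87-fold (−0.90 ± 0.051, edgeR adjusted p = 5.61e-07), and its paralog ASF1A also fell (−0.45 ± 0.089). Of 21 further fork genes, 8 fell and 2 rose. CLSPN, the adaptor that passes the checkpoint signal at stalled forks, fell (−0.44 ± 0.066), as did RNASEH2C (−0.47 ± 0.13), a subunit of the nuclease that removes ribonucleotides from DNA. RPA2 (0.14 ± 0.052), of the single-strand binding complex, and DSCC1 (0.14 ± 0.042), of an alternative clamp loader, rose by small amounts. RPA2 missed the threshold without any one library other than Control replicate 3 (edgeR adjusted p of 0.0568 to 0.120), and DSCC1 without Control replicate 1 and without miR372_3p replicates 1 and 3 (0.0548 to 0.0824).

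Further origin genes and S phase entry genes were split. Of 12 origin genes, 4 fell and 5 rose: TICRR (0.37 ± 0.054), which helps load CDC45, and MCMBP (0.33 ± 0.048), an MCM chaperone, rose, while the fork-associated DONSON (−0.27 ± 0.064) and ORC2 (−0.21 ± 0.052) fell. Of 9 genes of S phase entry, 3 fell and 5 rose. CDK2, the kinase that cyclin E activates, had 71.8, 72.7 and 73.9 CPM in miR372_3p libraries, against 92.4, 97.1 and 97.9 CPM in Control libraries. It fell 1.32-fold without overlap (−0.40 ± 0.043, edgeR adjusted p = 4.06e-05), as did E2F5 (−0.28 ± 0.065). SKP2 (0.40 ± 0.062), a ubiquitin ligase subunit that removes CDK inhibitors, and CDC25A (0.32 ± 0.054), the phosphatase that activates CDK2, rose. Of 8 checkpoint genes, 6 did not pass. WEE1, the kinase that holds CDK1 and CDK2 in check, had 73.5, 71.0 and 74.8 CPM in miR372_3p libraries, against 46.5, 45.2 and 43.3 CPM in Control libraries, and rose 1.62-fold (0.70 ± 0.048, edgeR adjusted p = 1.82e-06). HUS1, of the checkpoint clamp, fell (−0.23 ± 0.066), a call lost without miR372_3p replicate 1 (edgeR adjusted p = 0.0690) and without Control replicate 2 (0.0501).

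Of 6 CDK inhibitors and pocket proteins, 4 fell and 1 rose. CDKN1A, coding for the inhibitor p21, had 6.17, 4.45 and 6.35 CPM in miR372_3p libraries, against 11.9, 11.1 and 10.2 CPM in Control libraries. It fell 1.95-fold without overlap (−0.96 ± 0.14, edgeR adjusted p = 0.000313). The pocket protein genes RB1 (−0.53 ± 0.061), RBL1 (−0.52 ± 0.068) and RBL2 (−0.38 ± 0.051), whose products hold E2Fs inactive or repress with them, fell. CDKN1C, coding for the inhibitor p57, rose 6.09-fold (2.61 ± 0.17, edgeR adjusted p = 1.24e-06) but stayed at a low level, with 4.87, 4.41 and 4.89 CPM in miR372_3p libraries, against 0.788, 0.751 and 0.783 CPM in Control libraries.

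**Figure D5:**
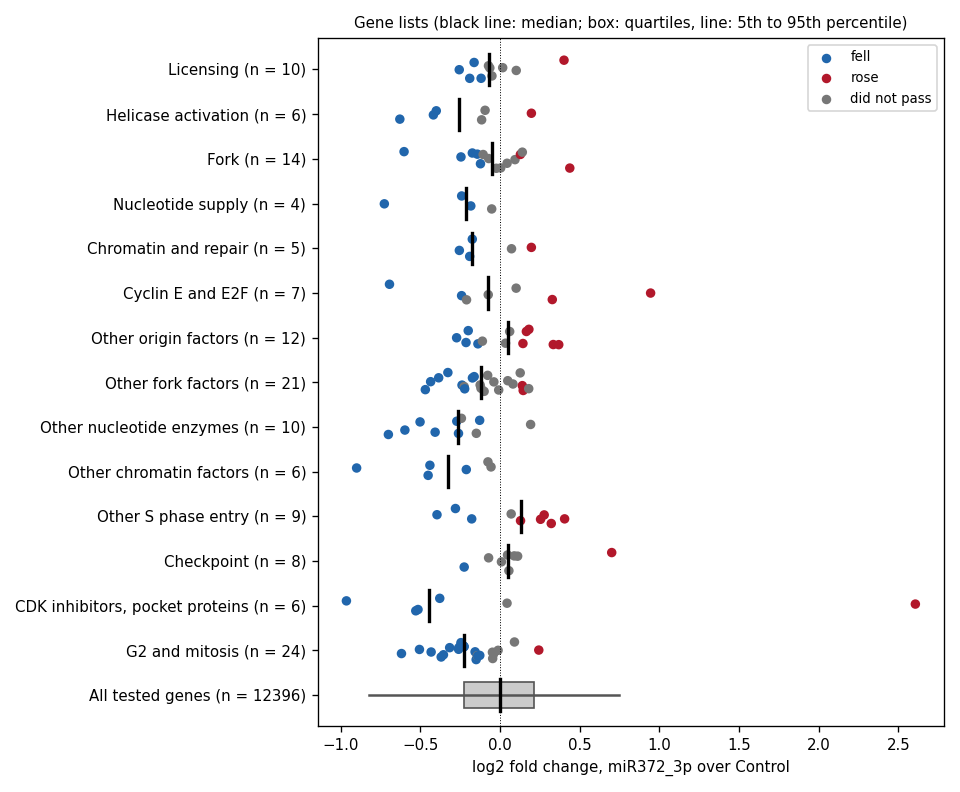
Log2 fold change, miR372_3p over Control, of the genes in each role of the 46 and in lists of related genes (points: genes; black line: median), beside all 12396 tested genes (box: quartiles; line: 5th to 95th percentile). Medians lie lowest for CDK inhibitors and pocket proteins, and that of all genes is 0.0013.

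Genes of G2 and mitosis and histone genes give the surroundings. Of 24 genes of G2 and mitosis, 17 fell and 1, AURKB, rose, with a median log2 fold change of −0.23. Of 19 rows with histone cluster symbols, 14 rose and none fell, with a median of 0.95. Most of these rows were low, with a median level of 2.49 CPM over the 6 libraries. HIST1H2AC, among the most abundant of them, had 22.9, 25.1 and 22.5 CPM in miR372_3p libraries, against 11, 11.2 and 9.37 CPM in Control libraries. Near-identical copies make histone counts uncertain, and copies such as HIST2H4A and HIST2H4B are counted as separate rows. How RNA was selected is not stated in the sources used here. Exons of 19 of the 46 members overlap exons of another gene in GENCODE 29, 15 of them on the other strand. Among members that passed, the overlapping gene lies on the same strand for POLA2, RRM2 and CHAF1B. For GINS2, GINS3, GINS4, RRM1, LIG1 and E2F8 the overlap is with genes on the other strand. TYMS and FEN1 are described above. Reads of the overlapping genes could not be told apart from those of the members.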

How the data were processed

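Per the labels' protocols, libraries were built from 1 µg of total RNA with the NEBNext Ultra kit, which leaves strand unmarked. Samples were grouped by title. Per the submitters' processing notes, DESeq2 1.38.3, StringTie 2.2.1 and HISAT2 2.0.4 were used with GRCh38 (hg38), in roles that are not stated, and the sources used here do not give how reads were counted.

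The deposited table gives whole-number read counts, not normalized, per the file headers. FPKM values, which the authors scaled to length and depth, were used for levels between genes and in 1 alternative. The deposited p-value and log2 fold change come from the authors' own comparison. In the authors' deposited table, 27 of the 46 genes had a p under 0.05 (20 lower, 7 higher). That p is not labelled as adjusted, so these counts may not share the adjusted threshold used here. No log2 fold change differed from the one computed here by more than 0.0014. Of 14006 rows, 1610 without a gene name (2.64 to 2.74% of counts in miR372_3p libraries, 2.88 to 3.63% in Control libraries) entered neither library sizes nor tests. The table holds no row under 208 counts, and weakly expressed genes were not analysed here. No per-sample column was left out (0).

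Counts of 12396 genes were fitted with edgeR 4.0.16 in R 4.3.3 (TMM, quasi-likelihood F-test, 2 groups, no block, Benjamini-Hochberg over all genes, threshold 0.05). filterByExpr removed 0 genes, so all 46 passed. CPM values use TMM-scaled library sizes. The common biological coefficient of variation was 0.0796, and no replicate pair matched within sampling noise (chi-square over its degrees of freedom, 6.86 to 38.6). The fit was tested on simulated data. Alternatives were DESeq2 1.42.0, limma 3.58.1 on log2(FPKM + 0.1), other scalings and filters, a replicate block and leaving out each library.

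Values in every library are given, by rule, for up to 3 members of each role that fell and 2 that rose most, and for the member nearest 0; other genes follow from fixed lists, up to 2 in each direction. GMNN, CCNE2, RRM2B, RBL1, RBL2, the POLE subunits, POLD1, HIST1H2AC and the count ratios were chosen after their values were seen. Count ratios between genes depend on gene length and are compared between groups only. The members and lists were chosen with earlier results of these data known. Promoters and the microRNA come from RefSeq (GRCh38.p14), gene positions and 3′ UTRs (longest coding-transcript UTR, at least 50 bases) from GENCODE 29. Word and site matches are descriptions and were not tested.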

Additional observations from a re-analysis of the deposited data

How the results depend on the processing

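Of the 27 members that passed, 13 that fell and 5 that rose kept their direction and their side of the threshold under all 14 alternatives; the exceptions were CHAF1B, E2F8, MCM3, ORC1, PCNA, POLA1 and RFC2, which fell, and FEN1 and GINS4, which rose. For the 46 members and the further genes picked by rule, 889 values kept their call, 46 no longer passed and 2 newly passed. Among these, no value that passed, in the reported fit or under an alternative, changed sign. Estimates near 0 that never passed, such as those of RFC4, TK1 and PRIM1, did change sign. DESeq2, the other scalings, both filters and the library sizes with unnamed rows called the same 27 members. limma on FPKM called 15 that fell and 5 that rose. Leaving out 1 library at a time, 15 to 20 members fell and 5 to 7 rose, and the median log2 fold change of fork genes ran from −0.086 (without Control replicate 2) to −0.034. The replicate numbers did not pair the samples (correlations of deviations −0.14, −0.052 and 0.10); with the replicate block, 20 members fell and 8 rose, RFC3 being added (0.14, adjusted p = 0.0475), and all 27 remained. RPA2, of the further fork genes, was lost with the replicate block (adjusted p = 0.0568) and with limma on FPKM (0.110). No scaling moved the median of all genes by over 0.012 on the log2 scale. Depth limits the low members most: CCNE2, at 6.51 to 9.0 CPM, had a 95% interval of −0.47 to 0.050.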
